A study of Homo sapiens with 2 samples.

Results

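Hashtag-0254 and Hashtag-0255 are 2 of the 4 oligonucleotide-tagged antibodies that marked separate pools of human blood-forming cells in a single droplet library, and the cells of Hashtag-0255 were compared with those of Hashtag-0254. The cells came from iPS11, an established human induced pluripotent stem cell line. CD34+ cells sorted from differentiating aggregates spent 5 days in medium for the endothelial-to-hematopoietic transition (EHT) on plates that were uncoated or coated with the Notch ligand DLL4, the adhesion molecule VCAM1 or both, and the nonadherent cells were harvested. For each coating, 3 wells were combined into 1 pool with its own hashtag. The sources used here name no coating for any hashtag, so every value is given by hashtag and no direction can be read as an effect of DLL4 or VCAM1. A cell was kept if the deposited call gave it 1 hashtag and if it had at most 36000 unique molecular identifiers (UMIs, one for each captured RNA molecule), 6000 genes and 18% of UMIs from mitochondrial genes. This left 1847 cells of Hashtag-0254 and 1571 of Hashtag-0255, in all 3418 of the 7550 cells kept for the 4 hashtags and of the 10836 barcodes in the library.

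During EHT, endothelial cells of the hemogenic kind round up, detach and turn on a blood program. Notch receptors on these cells are cleaved when they bind ligands such as DLL4, and the freed intracellular domain joins the DNA-binding protein RBPJ to switch on genes of the HES and HEY families. Lasting Notch signaling is needed for the T cell fate, while VCAM1 is bound by integrins made of the alpha 4 chain. The matrix also holds red cell, granulocyte, macrophage and mast cell transcripts, so cells were described both together and within 4 marker gates. These gates were *CD34* and *GATA2* with at least 2 UMIs each, which are found together in stem and progenitor cells, *SPINK2* with at least 3 UMIs, a gene of early progenitors, the macrophage complement genes *C1QA*, *C1QB* and *C1QC* with at least 10 UMIs in sum, and the neutrophil granule genes *ELANE*, *PRTN3* and *AZU1* with at least 20 in sum.

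The 250 bases before the start of *HES4* and *HES1*, repressors of the HES family that Notch switches on, are shown because both recur in the comparison of Notch genes. They come from RefSeq on GRCh38.p14. The window of *HES4* is chr1:1000098-1000347 on the minus strand and that of *HES1* chr3:194135898-194136147 on the plus strand. Capitals mark TGGGAA, the core of the RBPJ motif, searched on both strands.
HES4: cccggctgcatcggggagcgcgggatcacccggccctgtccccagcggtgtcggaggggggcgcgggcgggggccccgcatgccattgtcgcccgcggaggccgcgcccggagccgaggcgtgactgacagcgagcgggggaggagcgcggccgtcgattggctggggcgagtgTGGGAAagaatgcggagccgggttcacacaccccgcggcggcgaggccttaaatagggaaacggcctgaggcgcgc
HES1: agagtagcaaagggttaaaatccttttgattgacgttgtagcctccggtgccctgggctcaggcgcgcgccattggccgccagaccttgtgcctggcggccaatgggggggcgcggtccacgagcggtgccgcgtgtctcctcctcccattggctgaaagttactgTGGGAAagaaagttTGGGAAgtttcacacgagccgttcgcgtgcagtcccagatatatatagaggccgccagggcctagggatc
*HES4* had 1 TGGGAA that began 76 bases before the start, and *HES1* had 2, at 84 and 70 bases, all on the strand shown. Other forms of the motif were not searched, so the number of RBPJ sites cannot be read from these marks. These letters were present in 21.1% of 27305 promoter windows of this length, and a match is a description of the letters, not of a bound factor. Among genes at least 1.5-fold apart between the hashtags, 5 of 18 higher and 5 of 16 lower genes with a window held TGGGAA.

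Over all kept cells the 2 hashtags were close. Their cells had medians of 18099 and 17621 UMIs, 4160 and 4124 genes and 13.4 and 13.0% mitochondrial UMIs, and 12.9 and 17.6% of them lay within 1.2 times of the hashtag cut. The UMIs of each gene were summed over the cells of a hashtag, out of 34707600 gene UMIs for Hashtag-0254 and 28522216 for Hashtag-0255, and scaled to a total of 1000000 (CPM). Of 7782 genes with a mean of at least 10 CPM, 24 were at least 1.5-fold higher and 28 at least 1.5-fold lower in Hashtag-0255, which is 0.308% and 0.36% and together 0.668% of the genes compared. In such sums more cells of a type and more RNA per cell cannot be told apart. The median log2 ratio of Hashtag-0255 to Hashtag-0254 was 0.02 and its SD across genes was 0.14. The same rule called 45 of 7857 genes, 0.573%, between Hashtag-0252 and Hashtag-0253, and 301 of 7837, 3.84%, between Hashtag-0255 and Hashtag-0252. With 1 pool per hashtag there is no replicate check, so no test was made, and the 95% intervals given here cover counting error only. The 24 higher genes were led by *COL11A1* and *ACTA2*, followed by *COL4A1*, *COL3A1*, *COL1A1* and *TAGLN*. Of these, *ACTA2*, *COL1A1* and *TAGLN* are genes of smooth muscle and connective tissue cells. The 24 also held *HES4*, the T cell receptor chain *CD3G*, the immunoproteasome subunit *PSMB9* and *FOSB*. The 28 lower genes were led by the embryonic globin *HBE1*, *S100A8* and the eosinophil granule gene *PRG3*. They were followed by the globins *HBG2*, *HBZ* and *HBA1*, then *SELENBP1*, *PRG2*, the globin *HBG1* and the red cell membrane gene *GYPB*. Without the cells near the hashtag cut, 36 genes were higher and 35 lower, of which 23 and 24 were among those above. When every cell was given the same weight, 48 genes were higher and 30 lower, against 24 and 28 by summed UMIs.

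**Figure D1:**
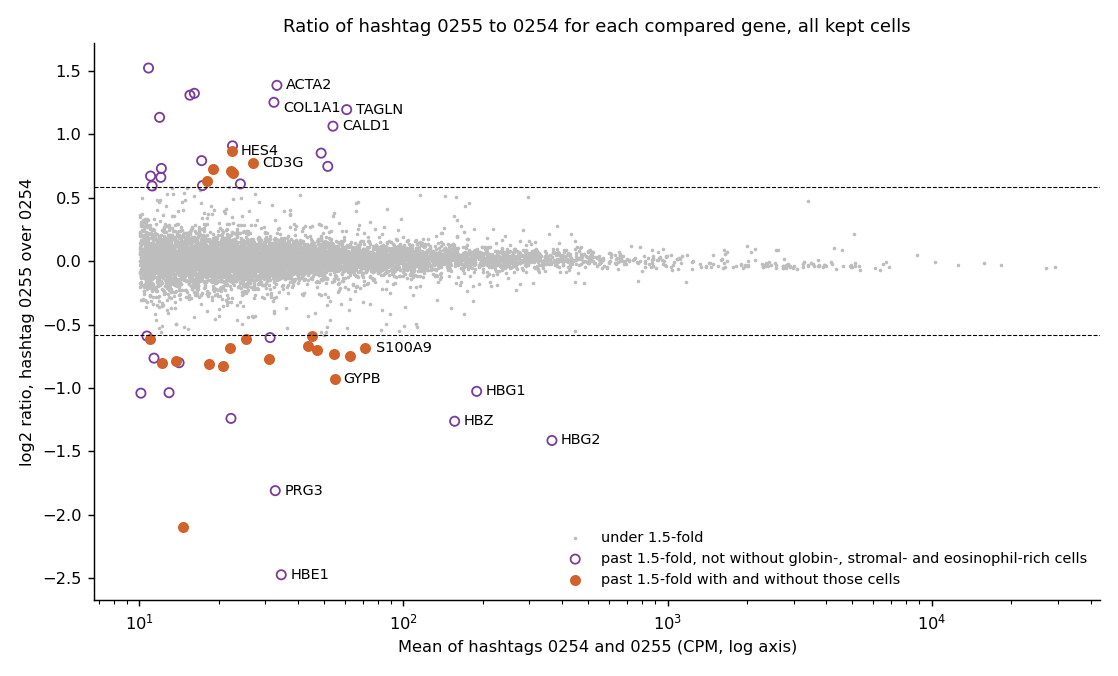
The log2 ratio of Hashtag-0255 to Hashtag-0254 (y axis) is plotted against the mean of both hashtags in CPM (x axis, log scale) for 7782 genes, with dashed lines at 1.5-fold. Filled orange points are genes past 1.5-fold both with and without cells rich in globin, stromal or eosinophil transcripts. Open purple points are past it with those cells, but without them are under it or under the mean of 10 CPM. Gray points are under 1.5-fold. The rich cells were picked by counts of globin, stromal and eosinophil genes, some of which are plotted here.

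Red cell genes were lower in Hashtag-0255. Of 25 listed erythroid genes 13 were compared, 7 were at least 1.5-fold lower and none higher, and their median log2 ratio was -0.80 against 0.02 for all genes compared. Over all genes compared 0.36% were at least 1.5-fold lower. *HBG2*, a fetal gamma globin, had 295 CPM in Hashtag-0252, 414 in Hashtag-0253, 531 in Hashtag-0254 and 199 in Hashtag-0255, so that Hashtag-0254 was the highest and Hashtag-0255 the lowest of the 4. The level in Hashtag-0254 was 2.66-fold that in Hashtag-0255 (95% interval 2.59 to 2.74, for counting error only). Cells with a UMI of *HBG2* made up 18.1% of Hashtag-0254 and 17.7% of Hashtag-0255. In these hashtags 9 and 4 cells held 50% of its UMIs. Without its 3 richest cells per hashtag the log2 ratio of *HBG2* was -1.92 instead of -1.41. *HBZ*, the embryonic zeta globin, had 29.4, 98.7, 220 and 92 CPM in Hashtag-0252, Hashtag-0253, Hashtag-0254 and Hashtag-0255, and again Hashtag-0254 was the highest. The gamma globins share most of their sequence, as do *HBA1* and *HBA2*, and how the counting split their reads was not checked here. *HBE1* had 58.3 CPM in Hashtag-0254 and 10.5 in Hashtag-0255, but 1767 of its 2025 UMIs in Hashtag-0254 came from 1 cell, and without each gene's 3 richest cells per hashtag its log2 ratio was -1.37 instead of -2.47. Cells with at least 20 UMIs over 8 globin genes numbered 83 in Hashtag-0254 (4.49%, exact 95% interval 3.59 to 5.54%) and 42 in Hashtag-0255 (2.67%, 1.93 to 3.60%), and they held 97.1 and 92.7% of the globin UMIs. This minimum, like the one for stromal and eosinophil genes, was chosen after the values were seen. Without these cells *HBG2*, *HBZ*, *HBG1* and *HBE1* had log2 ratios of 0.30, 0.17, 0.08 and 0.52, and the intervals of the last 3 held 0. The cells left out were picked by counts of these same genes and held most of their UMIs, so the remaining ratios are not a separate check. With a mitochondrial limit of 10%, which kept 139 and 138 cells, the log2 ratios of *HBG2*, *HBZ*, *HBG1* and *GYPB* were above 0, at 1.95, 1.02, 2.88 and 0.62.

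Without globin-, stromal- and eosinophil-rich cells 7 erythroid genes were compared, 1 of them was at least 1.5-fold lower, and the median log2 ratio was -0.22 in place of -0.80. *HBG2*, *HBZ*, *HBG1*, *HBA1* and *HBE1*, whose counts had helped to pick the cells left out, were then under 10 CPM and not among the 7. Some red cell genes spread over more cells, of which *GYPE*, *RHAG* and *KLF1* were named after their values were seen, kept a ratio below 1 without the globin-rich cells. *GYPB*, the gene of glycophorin B, had 115 CPM in Hashtag-0252, 90.1 in Hashtag-0253, 72 in Hashtag-0254 and 37.8 in Hashtag-0255, a ratio of 0.52 (0.49 to 0.56) between the last 2, and 60 cells of Hashtag-0254 held 50% of its UMIs. Without globin-rich cells its ratio was again 0.52. *GYPE*, a neighbor of the same family that shares sequence with it, had ratios of 0.59 and 0.57 with and without them. *RHAG*, which encodes an ammonium channel of the red cell membrane, had 53.5 CPM in Hashtag-0254 and 33.6 in Hashtag-0255, and *KLF1*, a transcription factor that drives globin genes, had 17.9 and 10.3. Without the globin-rich cells the ratio of *RHAG* was 0.60 and that of *KLF1* 0.72, so *KLF1* was then within 1.5-fold. At the other end of the list, *TFRC*, the transferrin receptor, and *UROD*, an enzyme of heme synthesis, had ratios of 0.96 (0.91 to 1.02) and 0.92 (0.88 to 0.96). Close to *GYPE* and *RHAG* in size of difference were *CCDC173*, a coiled-coil gene, *DHRS9*, a short-chain dehydrogenase, and *MYL4*, the atrial and embryonic myosin light chain, with ratios of 0.60 (0.56 to 0.64), 0.60 (0.56 to 0.64) and 0.61 (0.57 to 0.66).

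Among granulocyte genes 4 were at least 1.5-fold lower in Hashtag-0255, and most were within 1.5-fold. The share of all genes compared that were at least 1.5-fold lower was 0.36%. *PRG3*, an eosinophil granule protein, had 50.9 CPM in Hashtag-0254 and 14.5 in Hashtag-0255, against 77.7 in Hashtag-0252 and 113 in Hashtag-0253. Its neighbor *PRG2*, which encodes major basic protein, had 17.4 and 8.48 CPM in Hashtag-0254 and Hashtag-0255. The 2 were the members at least 1.5-fold lower among 15 compared eosinophil and mast cell genes, whose median log2 ratio was -0.41, whereas *CLC*, the crystal protein of eosinophils, was level with a ratio of 1.01 (0.96 to 1.07) and *HPGD*, which inactivates prostaglandins, was 1.45-fold higher (1.31 to 1.59). Eosinophil-rich cells, with at least 20 UMIs over *EPX*, *PRG2*, *PRG3* and *CLC*, were few, 34 in Hashtag-0254 and 15 in Hashtag-0255, and numbered 95 and 93 in Hashtag-0252 and Hashtag-0253. Without them the ratio was 0.74 (0.61 to 0.90) for *PRG3* and 0.71 (0.57 to 0.89) for *PRG2*, both within 1.5-fold, against 0.29 and 0.49 with them. Both genes had helped to pick the cells left out and were then under 10 CPM, so these ratios are not a separate check. Without globin-, stromal- and eosinophil-rich cells none of 12 compared genes of the eosinophil and mast cell list was past 1.5-fold, and the median log2 ratio was -0.18. Of 17 neutrophil granule genes, whose median log2 ratio was -0.09, 5 had a ratio above 1, and *S100A8* and *S100A9*, the subunits of calprotectin, were past 1.5-fold, with 23.8 and 5.57 CPM for *S100A8* and 88.3 and 54.9 CPM for *S100A9* in Hashtag-0254 and Hashtag-0255. Both hashtags were far below Hashtag-0252 and Hashtag-0253 here, where *S100A9* had 249 and 323 CPM. Megakaryocyte genes had a median log2 ratio of -0.22 over 10 genes and none was past 1.5-fold, with *ITGA2B*, a chain of the platelet fibrinogen receptor, lowest at 0.69 (0.65 to 0.74) and *PPBP*, a platelet chemokine, highest at 1.43 (1.26 to 1.62).

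Stromal genes were higher in Hashtag-0255, and a small group of cells held most of their UMIs. Of 12 compared stromal genes 9 were at least 1.5-fold higher and the median log2 ratio was 0.96. Over all genes compared 0.308% were that much higher and the median log2 ratio was 0.02. *ACTA2*, smooth muscle actin, had 11.3, 8.14, 18.4 and 48 CPM in Hashtag-0252 to Hashtag-0255 in order, a ratio of 2.61 (2.38 to 2.88) between the last 2. *COL1A1*, a chain of type I collagen, had 10.3, 9.13, 19.1 and 45.5 CPM in the same order. *TAGLN* and *CALD1*, both actin-binding proteins of contractile cells, had ratios of 2.29 (2.14 to 2.45) and 2.09 (1.95 to 2.25), and *COL4A2* and *SPARC*, of the matrix, ratios of 1.88 (1.68 to 2.10) and 1.68 (1.56 to 1.80). *ACTC1*, cardiac actin, had 34.8 and 62.8 CPM in Hashtag-0254 and Hashtag-0255, and 2 cells held 50% of its UMIs in Hashtag-0254. Cells with at least 20 UMIs over *TAGLN*, *ACTA2*, *CALD1*, *COL1A1*, *COL1A2* and *COL3A1* numbered 12, 12, 19 and 57 in the 4 hashtags, which is 1.03% (0.62 to 1.602%) of Hashtag-0254 and 3.63% (2.76 to 4.68%) of Hashtag-0255, and held 77.1 and 89.4% of those UMIs in Hashtag-0254 and Hashtag-0255. In Hashtag-0255 they were shallow, with a median of 9957 UMIs per cell against 17621 for all kept cells.

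Blood markers were lower in the stromal-rich cells than in the others, but not absent. *PTPRC*, the pan-leukocyte surface protein CD45, had 9.8 CPM (2.67 to 25.1) in those of Hashtag-0254 and 39.3 (25.9 to 57.2) in those of Hashtag-0255, against 97 and 103 CPM in the other kept cells. *SPN*, the leukocyte surface protein CD43, had 44.1 and 65.5 CPM in them against 256 and 253.7 CPM in the others, and *CD34* 7.35 and 24.8 against 120 and 100.3. In Hashtag-0255 49.1% of the stromal-rich cells had a UMI of *SPN* and 26.3% one of *CD34*. *CDH5*, the cadherin of endothelial junctions, had no UMI in 19 and 57 stromal-rich cells (upper 95% limits of 9.04 and 5.37 CPM, above the 1.08 and 1.58 CPM of the other kept cells), where *COL1A1* had 1460 and 1802 CPM. Of 57 such cells in Hashtag-0255, 54 were in no gate. Without them 9 genes were at least 1.5-fold higher in Hashtag-0255, 6 of them among the original 24. Those 6 were *HES4*, *CD3G*, *PSMB9*, *FOSB*, *IDO1* and *HOXB-AS3*. The other 18 were no longer among them. *ANKRD1* and *COL11A1*, named after their values were seen, kept ratios of 1.83 (1.11 to 3.03) and 1.69 (1.23 to 2.33), but their means fell under 10 CPM. The rest were no longer 1.5-fold higher. *ACTA2*, *TAGLN*, *SPARC* and *FN1*, the gene of fibronectin, then had log2 ratios of -0.11, -0.04, -0.14 and -0.76. *ACTA2*, *TAGLN* and *FN1* were then under 10 CPM in both hashtags. *ACTA2* and *TAGLN* were also among the genes by which the cells left out had been picked, so their ratios are not a separate check. Of the 28 lower genes 25 were still compared and at least 1.5-fold lower without the stromal-rich cells, and 19 without the globin-rich cells.

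**Figure D2:**
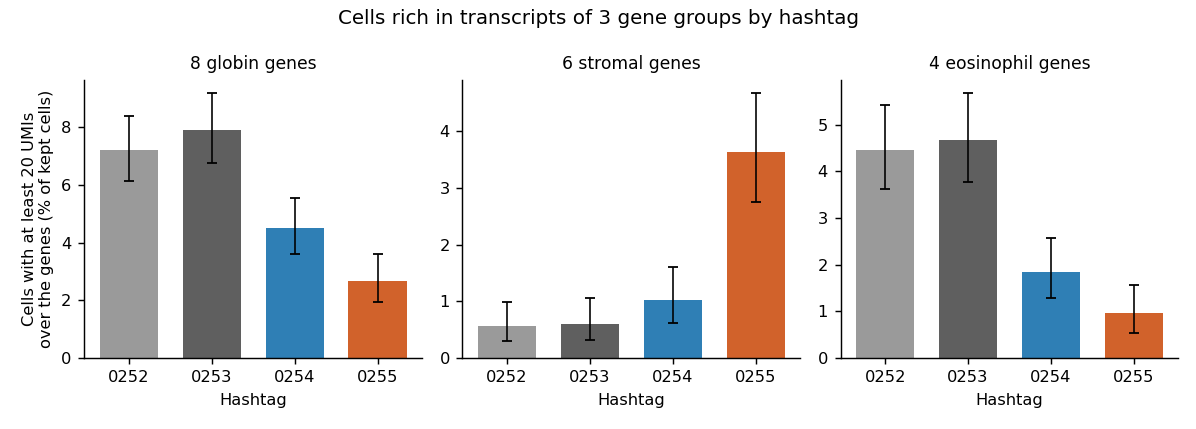
The share of kept cells (y axis, percent, from 0) with at least 20 UMIs over 8 globin, 6 stromal or 4 eosinophil genes is shown for the 4 hashtags, with exact 95% intervals. Stromal-rich cells were 3.63% of Hashtag-0255 and 1.03% of Hashtag-0254, and globin-rich cells 2.67 and 4.49%.

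Several Notch target genes had higher levels in Hashtag-0255. Of the list, *HES1*, *HES4*, *CD3D*, *DTX1*, *BCL11B* and *HEY2* are named in the study's text as known targets and described there in these cells, and the others were added here with earlier results of these data known, so their direction is not independent evidence. Of 14 listed, 4 reached 10 CPM, and all 4 had a ratio above 1, as had 58.4% of all genes compared. Their median log2 ratio was 0.50, but only *HES4* was past 1.5-fold. *HES4* (GRCh37 chr1:934342-935552) had 4.73 CPM (95% interval 4.08 to 5.45) in Hashtag-0252, 4.21 (3.59 to 4.91) in Hashtag-0253, 15.8 (14.5 to 17.2) in Hashtag-0254 and 28.9 (27 to 31) in Hashtag-0255. The intervals of Hashtag-0252 and Hashtag-0253 overlapped, those of Hashtag-0254 and Hashtag-0255 met neither these nor each other, and Hashtag-0255 was 1.83-fold above Hashtag-0254 (1.64 to 2.04). No single cell made this difference, since 79 cells of Hashtag-0254 and 102 of Hashtag-0255 held 50% of the UMIs and the richest cell of each had 13. *HES1* was closer, with 20.8, 25.2, 32.5 and 36.3 CPM and a ratio of 1.12 (1.02 to 1.21), and *NRARP*, a feedback inhibitor of Notch, had 7.35, 7.64, 9.71 and 13.5 CPM and a ratio of 1.39 (1.201 to 1.62). Below the minimum of 10 CPM, *DTX1*, a ubiquitin ligase induced by Notch, had 0.52, 0.884, 2.42 and 7.82 CPM, a ratio of 3.23 (2.503 to 4.20) from 84 and 223 UMIs. *BCL11B*, a transcription factor of T cell commitment, had 30 UMIs in Hashtag-0254 and 69 in Hashtag-0255, and *HEY2* 55 and 54. For *HEY2* the interval of the ratio, 0.81 to 1.77, held 1. The other listed targets were also under 10 CPM, and their values are not given here. The receptors and processing machinery of the pathway differed less, with no gene past 1.5-fold among 13 compared and a median log2 ratio of 0.00, and *NOTCH1* and *RBPJ* had ratios of 1.03 (0.94 to 1.14) and 0.98 (0.94 to 1.03).

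The *CD3G*, *CD3D* and *CD3E* chains of the T cell receptor complex had a higher level in Hashtag-0255 over all kept cells. *CD3G* (GRCh37 chr11:118215059-118225876) had 3.96, 3.64, 19.9 and 34.1 CPM in Hashtag-0252, Hashtag-0253, Hashtag-0254 and Hashtag-0255, 1.71-fold more in Hashtag-0255 than in Hashtag-0254 (1.55 to 1.89). *CD3D*, which the study counts among the Notch targets, had 23.9, 24.2, 95.1 and 136 CPM and a ratio of 1.43 (1.37 to 1.502), and *CD3E* had 6.58, 5.2, 21.5 and 27.5 CPM and a ratio of 1.28 (1.15 to 1.41). For these 3 genes the order of the Hashtag-0254 and Hashtag-0255 was the same, and both stood above Hashtag-0252 and Hashtag-0253. Cells with a UMI of *CD3G* made up 14.1% of Hashtag-0254 and 19.4% of Hashtag-0255, or 6.31% and 11.2% after each cell was thinned to 5000 UMIs, which left out 9 and 22 shallower cells. In the granule gate, whose cells are not expected to make this chain, the shares at full depth were 3.85 and 3.03%, with medians of 18734 and 21265 UMIs per cell against 18099 and 17621 over all kept cells. Within the C1Q gate *CD3G* went the other way, with a ratio of 0.50 (0.30 to 0.81), while *HES4* was at 2.11 (1.19 to 3.81). *CD247*, the zeta chain, had 22 UMIs in each of the 2 hashtags and a ratio of 1.22 (0.64 to 2.30), whose interval held 1. *LTB*, the lymphotoxin chain of lymphoid cells, had 73.8, 108, 244 and 346 CPM, a ratio of 1.42 (1.38 to 1.46). Its level was higher in the C1Q gate, as given below, so it did not mark lymphoid cells alone here. Summed over the lymphoid and T cell list, Hashtag-0254 and Hashtag-0255 had 1540 and 1793 CPM over all kept cells. In the C1Q gate these sums were 4627 and 5042 CPM. Of 15 compared lymphoid and T cell genes 13 had a ratio above 1 (58.4% of all genes compared did), 1 was past 1.5-fold and the median log2 ratio was 0.12. The lowest were *CCR7*, a chemokine receptor, at 0.88 (0.75 to 1.03) and *MEF2C*, a transcription factor, at 0.96 (0.92 to 0.999).

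**Figure D3:**
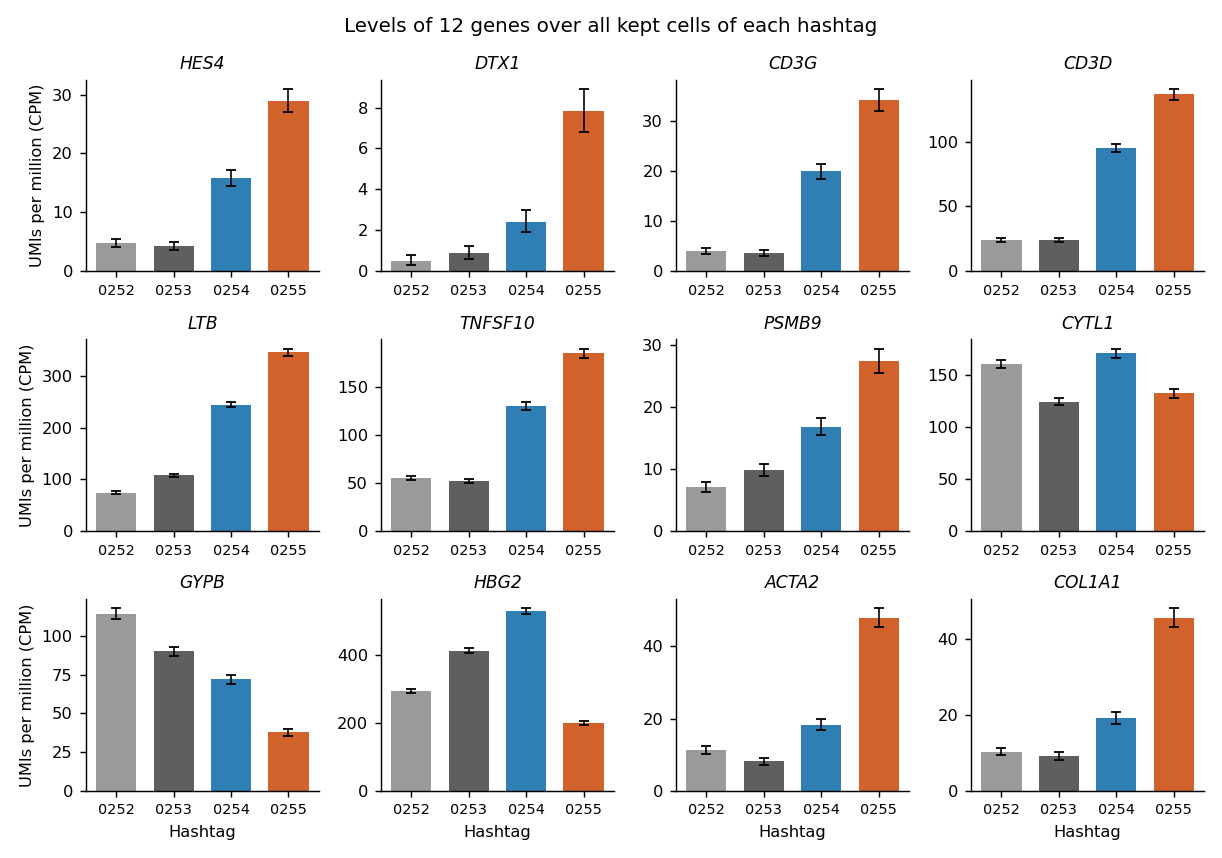
Bars show CPM (y axis, from 0, a separate scale for each gene) over all kept cells of Hashtag-0252, Hashtag-0253, Hashtag-0254 and Hashtag-0255 for 12 genes, with exact Poisson 95% intervals for counting error. *HES4*, *DTX1*, *CD3G*, *CD3D*, *LTB*, *TNFSF10* and *PSMB9* were highest in Hashtag-0255 with Hashtag-0254 next, *GYPB* and *HBG2* lowest in Hashtag-0255, and *ACTA2* and *COL1A1* highest in Hashtag-0255.

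Interferon-regulated genes showed small differences in the same direction over all kept cells, but not in every gate. Of 30 compared, 26 had a ratio above 1, as had 58.4% of all 7782 genes compared, the median log2 ratio was 0.11 and *PSMB9*, an immunoproteasome subunit (GRCh37 chr6:32811913-32827628), was past 1.5-fold. It had 7.03, 9.85, 16.8 and 27.5 CPM in Hashtag-0252 to Hashtag-0255, a ratio of 1.64 (1.47 to 1.83) between the last 2. The next was *IFIT3*, an antiviral effector, with 8.83, 14.1, 14.4 and 19.8 CPM and a ratio of 1.37 (1.22 to 1.55). The genes of this group that the study names differed less, namely *IRF1*, a transcription factor, at 1.22 (1.13 to 1.33), *IFI6* at 1.07 (0.999 to 1.14), and the proteasome activator subunits *PSME1* and *PSME2* at 1.10 (1.07 to 1.14) and 1.16 (1.13 to 1.19). The lowest were *IFITM1* at 0.94 (0.84 to 1.05) and *HLA-E* at 0.97 (0.91 to 1.03). In the gate of *CD34* and *GATA2* 12 of 17 compared interferon-regulated genes had a ratio above 1. In the C1Q gate it was 13 of 28 and in the granule gate 7 of 17. Over all kept cells HLA class II genes were also shifted upward, with all 10 compared above 1 and a median log2 ratio of 0.12. They were led by *HLA-DRB1* and *HLA-DQB1*, both at 1.21 (1.17 to 1.26 and 1.12 to 1.31).

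Adhesion, stem cell and cell cycle genes differed little. None of 26 adhesion and cytoskeleton genes was past 1.5-fold. *ITGB7* and *ITGA4*, which encode both chains of an integrin that can bind VCAM1, were the 2 highest at 1.41 (1.27 to 1.56) and 1.29 (1.19 to 1.40), and *ITGB7* had 9.18, 11.3, 20.2 and 28.4 CPM in Hashtag-0252 to Hashtag-0255. *FERMT3*, which activates integrins, was the lowest, with 155, 155, 114 and 89 CPM and a ratio of 0.78 (0.74 to 0.82), followed by *SELPLG*, a selectin ligand, at 0.90 (0.84 to 0.96), and *EVL*, an actin regulator, had a ratio of 1.14 (1.10 to 1.195). None of 23 compared stem and progenitor genes was past 1.5-fold. The lowest were *CYTL1*, a secreted protein first found in CD34+ cells, with 160, 124, 171 and 132 CPM and a ratio of 0.77 (0.74 to 0.81), and *GATA2* at 0.81 (0.78 to 0.85), and the highest were *SPINK2* at 1.19 (1.12 to 1.26) and *HOPX* at 1.14 (1.01 to 1.29). *CD34* itself was at 0.83 (0.79 to 0.87). No gene of the S phase list (38 compared) or the G2/M list (52 compared) was past 1.5-fold, and their median log2 ratios were 0.08 and 0.11. In these 2 lists 33 of 38 and 49 of 52 genes had a ratio above 1, where 58.4% of all genes compared did. Small shifts upward were therefore not particular to the interferon-regulated genes. *FOSB*, an early-response transcription factor, had 26.7, 22.3, 17.3 and 27.9 CPM, so that Hashtag-0254 was the lowest of the 4 and Hashtag-0255 was level with Hashtag-0252.

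Shares of cells in the gates were compared next. Each gate is a UMI minimum, so fewer cells of a type and less RNA of the gate genes per cell cannot be told apart. The gate of *CD34* and *GATA2* held 26.6% of the cells of Hashtag-0254 (exact 95% interval 24.6 to 28.7%) and 18.6% of Hashtag-0255 (16.7 to 20.6%), a difference of -8.05 points (-10.9 to -5.21), or -8.69 points (-11.5 to -5.79) without the cells near the hashtag cut, and 25.1 and 23.6% of Hashtag-0252 and Hashtag-0253, so that Hashtag-0255 stood alone as the lowest. With each cell thinned to 10000 UMIs the shares were 11.3 and 7.09%, a difference of -4.17 points (-6.20 to -2.11). Thinning left out 106 cells of Hashtag-0254 and 147 of Hashtag-0255. The *SPINK2* gate held 19.2% of Hashtag-0254 and 20.9% of Hashtag-0255, with a difference of 1.71 points whose interval, -1.02 to 4.46, held 0, and 13.9 and 10.2% of Hashtag-0252 and Hashtag-0253. After thinning it held 9.36 and 12.1%, a difference of 2.79 points (0.58 to 5.03). The C1Q gate held 9.10 and 7.38%, with a difference of -1.71 points (-3.59 to 0.18), and the granule gate 5.63 and 4.20%, with a difference of -1.43 points (-2.91 to 0.07), so for these 2 the intervals held 0. In Hashtag-0252 and Hashtag-0253 the granule gate held 17.2 and 18.4%. A cell could be in more than 1 gate, so the gates are not separate sets of cells. The gate of *CD34* and *GATA2* shared 77 cells of Hashtag-0254 and 48 of Hashtag-0255 with the *SPINK2* gate. The C1Q and granule gates shared 4 and 5. Cells in no gate made up 44.9% of Hashtag-0254 and 52.8% of Hashtag-0255. When both hashtags were weighted to the same mix of gates, 16 of 24 higher and 19 of 28 lower genes were past 1.5-fold.

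**Figure D4:**
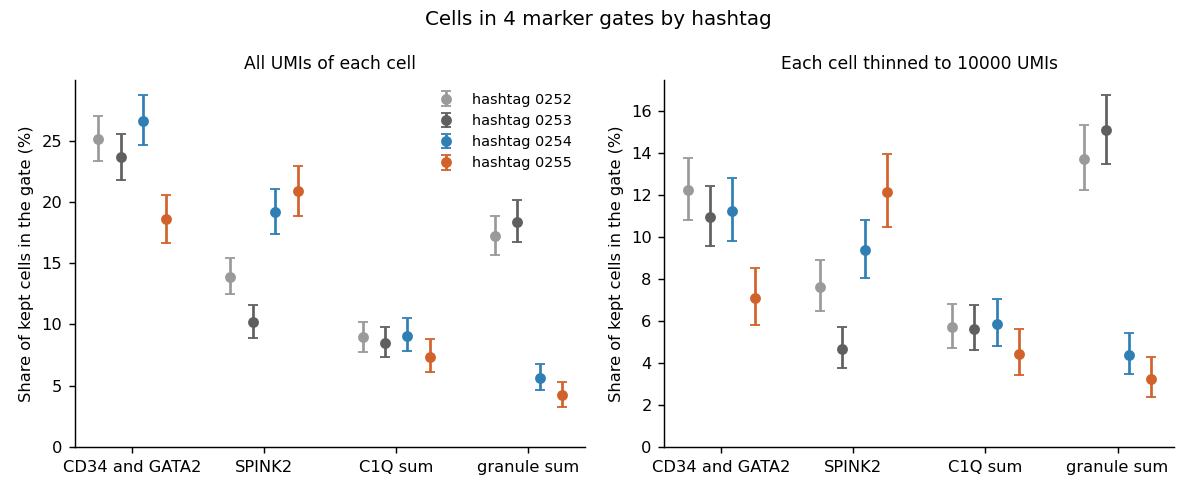
The share of kept cells (y axis, percent) in each of 4 marker gates is shown for the 4 hashtags with exact 95% intervals, at full depth on the left and with each cell thinned to 10000 UMIs on the right. The *CD34* and *GATA2* gate held 26.6% of Hashtag-0254 and 18.6% of Hashtag-0255 at full depth, and the granule gate was higher in Hashtag-0252 and Hashtag-0253 than in both.

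Within the gate of *CD34* and *GATA2*, 492 cells of Hashtag-0254 and 292 of Hashtag-0255 were compared. Of 4117 genes with a mean of at least 30 CPM, 2 were at least 1.5-fold higher and 9 lower, which is 0.0486% and 0.219% and together 0.267% of those compared. *TNFSF10* was the highest by ratio, with 47.9, 53.8, 156 and 256 CPM in Hashtag-0252 to Hashtag-0255 and a ratio of 1.64 (1.53 to 1.76), and 41 cells of Hashtag-0255 held 50% of its UMIs. Over all kept cells it had 55.2, 51.7, 130 and 185 CPM. The other was *FAM110A*, named after its values were seen, at 32 and 52.5 CPM. The genes below are ranked among those with a mean of at least 50 CPM in the gate. Next came *NUDT8*, a nudix hydrolase, at 1.35 (1.23 to 1.48), *CD82*, a tetraspanin, at 1.34 (1.22 to 1.48), *IGLL1*, a surrogate light chain of B cell precursors, at 1.34 (1.26 to 1.42) and *RUNX3*, a transcription factor of T and myeloid cells, at 1.32 (1.18 to 1.47). The lower genes were led by *HBD*, the delta globin, at 188 and 83.3 CPM and *HBG2* at 342 and 166 CPM in Hashtag-0254 and Hashtag-0255, but 9 and 3 cells of Hashtag-0254 held 50% of their UMIs. *GYPB* had 121 and 75 CPM and *DHRS9* 121 and 78.5 CPM, and here 33 and 45 cells held 50%. *CLC* had 84.6 and 43.3 CPM from a few rich cells, with 50% of its UMIs in 3 cells of Hashtag-0254 and 2 of Hashtag-0255. Without the 3 richest cells of each hashtag the log2 ratios of these 5 genes were all below 0, from -0.73 to -2.61.

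In the *SPINK2* gate 354 and 328 cells were compared. None of 4162 genes was past 1.5-fold, 0% of those compared, and 51 were at least 25% higher in one hashtag than in the other, 1.23%. *ACY3*, an aminoacylase, was nearest, with 206, 118, 306 and 454 CPM in Hashtag-0252 to Hashtag-0255 and a ratio of 1.48 (1.41 to 1.57). *PARP14*, an ADP-ribosyltransferase of the interferon response, had a ratio of 1.35 (1.18 to 1.55), *THOC1*, of the mRNA export complex, one of 1.30 (1.13 to 1.48), *ABI3*, an adaptor of actin regulation, one of 1.29 (1.16 to 1.44), and *TNFSF10* one of 1.29 (1.17 to 1.41). The lowest were *MPO*, the myeloperoxidase of granulocyte precursors, with 509, 902, 352 and 255.3 CPM and a ratio of 0.72 (0.68 to 0.77), and *ID1*, an inhibitor of differentiation, and *CYTL1*, both at 0.74 (0.66 to 0.83 and 0.68 to 0.81). They were followed by *QDPR*, which regenerates tetrahydrobiopterin, at 0.77 (0.67 to 0.87) and *MAX*, the partner of MYC, at 0.78 (0.70 to 0.87). *CD3D* had its highest level of the 4 gates here, with 201 CPM in Hashtag-0254 and 253.7 in Hashtag-0255, a ratio of 1.26 (1.18 to 1.36), and *CD3G* had 32.4 and 45.5 CPM and *HES4* 21.1 and 30.4. *DTX1* had 5.9 and 14.7 CPM here, a ratio of 2.495 (1.74 to 3.63) from 45 and 103 UMIs.

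Macrophage-like transcripts defined the C1Q gate, with 168 cells of Hashtag-0254 and 116 of Hashtag-0255 and medians of 13515 and 14297 UMIs. Of 3986 genes 44 were higher and 44 lower, 1.1% each way and together 2.21% of those compared, in sums of far fewer UMIs than over all cells. Ranks are given among genes with a mean of at least 50 CPM in the gate. The lowest were *DLK1*, an imprinted relative of Notch ligands, with 80.5 and 32.6 CPM in Hashtag-0254 and Hashtag-0255, *CCL4* and *CCL3*, chemokines of activated macrophages, *TESC*, a calcium-binding protein, with 147 and 83 CPM, and *MS4A7*, a macrophage membrane protein, with 124 and 70.9 CPM. 50% of the UMIs of *DLK1* were in 4 cells of Hashtag-0254 and those of *CCL4* in 2, whereas those of *TESC* and *MS4A7* were spread over 25 and 21. The highest was *S100A10*, an annexin partner, with 108, 94, 38.7 and 102 CPM in Hashtag-0252 to Hashtag-0255, so that Hashtag-0254 was low and Hashtag-0255 near the other hashtags. *PRTN3*, *PLAUR*, the urokinase receptor, and *LINC00936*, a noncoding RNA, had ratios of 2.28 (1.91 to 2.73), 1.96 (1.496 to 2.58) and 1.82 (1.40 to 2.36), and 50% of the *PRTN3* UMIs in Hashtag-0255 came from 2 cells. *TPM1*, a tropomyosin, had a log2 ratio of 1.31, which was -0.50 without its 3 richest cells per hashtag, and this gate held 2 stromal-rich cells of Hashtag-0255 and none of Hashtag-0254. *LTB* had 778 and 1125 CPM, a ratio of 1.44 (1.36 to 1.54).

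Only 104 cells of Hashtag-0254 and 66 of Hashtag-0255 were in the granule gate. Of 4325 genes 45 were higher and 76 lower, which is 1.04% and 1.76% and together 2.8% of those compared, in a gate where single cells weighed heavily. Ranks here, too, are among genes with a mean of at least 50 CPM in the gate. *HBZ* and *HBG2* were the lowest, but without the 3 richest cells of each hashtag their log2 ratios were -0.35 and -0.26 instead of -5.44 and -3.46. *S100A8* had 455, 331, 346 and 72.6 CPM in Hashtag-0252 to Hashtag-0255, lowest in Hashtag-0255, and a log2 ratio of -2.25 that was -2.28 without its richest cells. *PRG3* had 610 and 154 CPM and *KCNH2*, a potassium channel, 135 and 37 CPM in Hashtag-0254 and Hashtag-0255, and 50% of the *PRG3* UMIs were in 4 cells of Hashtag-0254 and 1 of Hashtag-0255. This gate held 15 eosinophil-rich cells of Hashtag-0254 and 4 of Hashtag-0255. Of 18 compared neutrophil genes 5 were at least 1.5-fold lower and none higher, and *MPO* was level with a ratio of 1.06 (1.03 to 1.09). *BEX1*, an adaptor protein, had 95.2, 87.4, 24.7 and 96.6 CPM, so that Hashtag-0254 stood below the other 3. The interferon-induced *ISG15*, *ID2*, an inhibitor of differentiation, *AARS*, an alanine tRNA synthetase, and *PLAUR* had ratios of 1.64 (1.32 to 2.05), 1.73 (1.29 to 2.32), 1.61 (1.204 to 2.16) and 1.59 (1.16 to 2.19), and the log2 ratio of *PLAUR* was -0.16 without its 3 richest cells per hashtag.

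*GSTP1*, a glutathione transferase and among the more abundant transcripts, had a ratio above 1 in some gates and not in others. Over all kept cells it had 1521, 1560, 2854 and 3971 CPM in Hashtag-0252 to Hashtag-0255, a ratio of 1.39 (1.38 to 1.40). The ratio was 1.31 (1.29 to 1.33) in the gate of *CD34* and *GATA2*, 1.23 (1.21 to 1.249) in the *SPINK2* gate and 1.48 (1.46 to 1.496) in cells of no gate, but 0.91 (0.86 to 0.96) in the C1Q gate and 0.94 (0.88 to 0.999) in the granule gate. *CD3D* was likewise above 1 in the first 3 groups, with 1.24 (1.11 to 1.39), 1.26 (1.18 to 1.36) and 1.53 (1.41 to 1.65) in that order, and at 0.84 (0.63 to 1.12) and 0.62 (0.41 to 0.92) in the C1Q and granule gates. Whether these gates differ beyond the spread between pools could not be tested with 1 pool per hashtag.

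**Figure D5:**
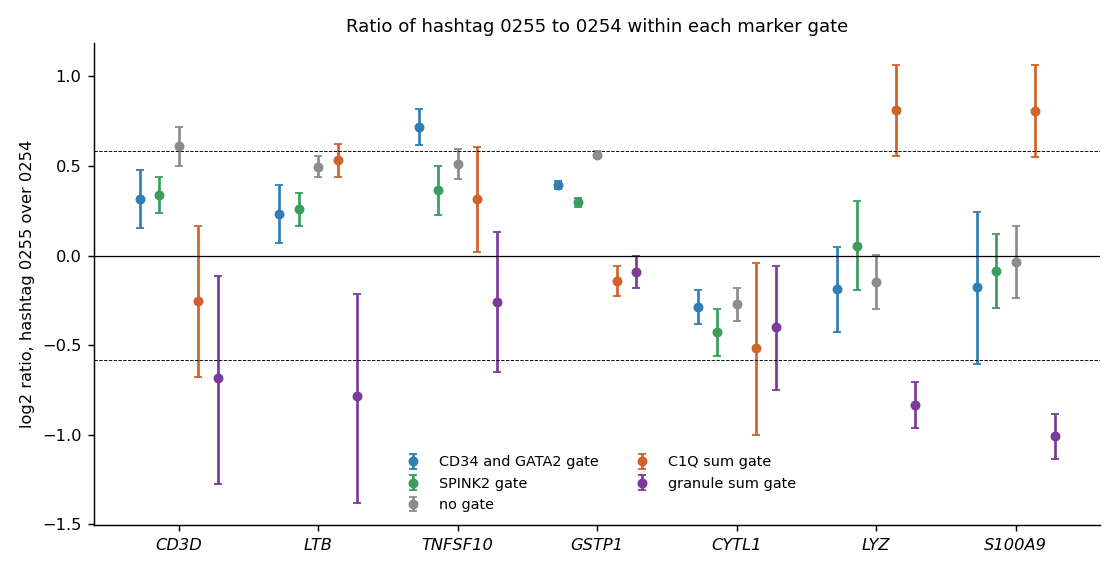
The log2 ratio of Hashtag-0255 to Hashtag-0254 (y axis) for 7 genes is shown within each of the 4 marker gates and in cells of no gate, with exact 95% intervals for counting error and dashed lines at 1.5-fold. *CD3D*, *LTB*, *TNFSF10* and *GSTP1* lay above 0 in the *CD34* and *GATA2* gate, the *SPINK2* gate and cells of no gate, and *LYZ* and *S100A9* lay on opposite sides of 0 in the C1Q and granule gates.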

How the data were processed

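One 10x Genomics 3′ library of nonadherent iPS11-derived cells and its hashtag library were used. For the gene counts, the authors ran Cell Ranger 6.0.1 against hg19 and deposited UMI counts per gene and cell (32738 genes), and their table of hashtag calls gave 1 call per cell. Called doublets and negatives were left out, and Scrublet marked 33 of the called cells in Hashtag-0254 and 9 in Hashtag-0255, which were not removed for it. UMIs were summed per hashtag and divided by all gene UMIs. A gene was compared at a mean of at least 10 CPM over all cells or 30 CPM in a gate, and called at 1.5-fold. Levels have exact Poisson intervals, ratios exact conditional binomial ones and shares Clopper-Pearson ones, combined by the Newcombe method for a difference of shares (all 95%), and these cover counting error only. With 1 pool per hashtag no test was made. Named genes were the 12 highest and 12 lowest ratios at 20 CPM or more over all cells, the 5 highest and 5 lowest at 50 CPM or more in each gate, the 2 highest and 2 lowest members of the gene lists described, and Notch, interferon and adhesion genes that the study's text names. *GYPE*, *RHAG*, *KLF1*, *CD3E*, *CD247*, *GSTP1*, *FAM110A*, *NOTCH1*, *RBPJ*, *CLC*, *CD34* and some values within gates were added after their values were seen. So were *SELENBP1*, *COL11A1*, *COL4A1* and *COL3A1*. The members and the 27 lists were chosen with earlier results of these data known. On data simulated from 1 profile with counting error alone, 100% of 2-fold and 94% of 1.6-fold changes over all cells were recovered among 7793 genes. The changes were placed in genes of at least 20 CPM, and no spread between cells or pools was simulated. These rates therefore cannot show how the calls hold against such spread. Other cell limits, gate minimums, scalings and folds were tried. The work was done in Python 3.11.15 with matplotlib 3.10.9, scanpy 1.11.5, scipy 1.17.1, pandas 2.3.3 and numpy 2.4.6.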

Additional observations from a re-analysis of the deposited data

Results flagged for a closer look

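Of 5143 genes compared in at least 1 gate, 206 were past 1.5-fold in at least 1, with intervals that excluded a ratio of 1. For 5 of these 206 the ratio of Hashtag-0255 to Hashtag-0254 lay past 1.5-fold in opposite directions in the C1Q and granule gates. Genes past 1.5-fold in the same direction in more than 1 gate were not counted. The difference between the gates was not tested, since there was 1 pool per hashtag. *LYZ*, lysozyme, had 92.4 and 162 CPM in Hashtag-0254 and Hashtag-0255 in the C1Q gate, a log2 ratio of 0.81, and 884 and 495 CPM in the granule gate, a log2 ratio of -0.84. *S100A9* had log2 ratios of 0.81 and -1.01 and *S100A10* of 1.40 and -0.64 in the C1Q and granule gates. For *CCL4* they were -1.06 and 0.59, and 1 or 2 cells held 50% of its UMIs in each hashtag and gate. In the granule gate *CCL4* had only 25.2 and 37.8 CPM, and the interval of its log2 ratio, 0.002 to 1.17, barely excluded 0. The last of these genes was *CHI3L1*, a chitinase-like protein named after its values were seen, at 0.65 and -1.24.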

How the results depend on the processing

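No paired analysis was possible because each hashtag is 1 pool, and for the same reason no replicate could be left out. Depth limits the C1Q and granule gates most, where sums of 1747741 and 1377483 UMIs in Hashtag-0255 give wide intervals. Of 892 values for named genes under other settings, 789 kept their direction and their side of 1.5-fold, 65 kept the direction but crossed 1.5-fold, and 38 reversed. The 789 include settings that changed only the CPM minimum, where the ratio of a named gene could not change. Of 135 list medians, 124 stayed within a small fixed distance of their first log2 value. For 32 of 36 differences in gate shares the direction stayed, and the interval excluded or held 0 as before. The cause of the changes below was not tested. Without the stromal-rich cells, a choice made after seeing the data like the others on rich cells, 9 genes were higher in Hashtag-0255 over all cells, and without globin-, stromal- and eosinophil-rich cells 10 were higher and 17 lower. Each kind of rich cell was picked by counts of its own genes, so ratios of those genes without it are not a separate check. Without globin-rich cells the log2 ratios of *HBE1*, *HBG2*, *HBZ* and *HBG1* were 0.52, 0.30, 0.17 and 0.078. Without stromal-rich cells those of *ACTA2*, *TAGLN*, *SPARC* and *FN1* were -0.11, -0.040, -0.14 and -0.76, and without all 3 kinds those of *HBE1*, *HBG1*, *ACTA2*, *TAGLN*, *SPARC* and *FN1* were 0.46, 0.059, -0.033, -0.067, -0.15 and -0.81.

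Over all cells, the genes higher and lower in Hashtag-0255 numbered 121 and 85 of 11623 compared at a minimum of 2 CPM, and 3 and 7 of 2714 at 50 CPM. Of 7782 compared, they numbered 14 and 18 with 5 CPM added, 95 and 95 at a fold 25% above 1 and 8 and 9 at 2-fold. By the mean of per-cell CPM 48 of 7819 were higher. A mitochondrial limit of 10% kept 139 and 138 cells of Hashtag-0254 and Hashtag-0255. Of 8056 genes then compared, 266 were higher and 214 lower. At this limit the log2 ratios were 1.95 for *HBG2*, 1.02 for *HBZ*, 0.45 for *HBA1*, 2.88 for *HBG1*, 0.62 for *GYPB* and 0.35 for *CCL4*.

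In the gate of *CD34* and *GATA2* the counts were 12 and 34 of 7640 compared at 10 CPM and 1 and 2 of 1419 at 100 CPM. Of 4117 compared, they were 33 and 48 at a fold 25% above 1 and 0 and 2 at 2-fold. They were 6 and 5 of 4154 with higher gate minimums and 708 and 435 of 4428 at the 10% mitochondrial limit. In this gate *CLC* had a log2 ratio of 0.36 with lower gate minimums and *HBG2* 1.46 with higher ones. At the 10% limit *HBD*, *HBG2*, *GYPB*, *NUDT8* and *CD82* had 1.76, 0.34, 0.46, -0.045 and -0.22. The gate then held only 15.1% of 139 cells of Hashtag-0254 and 5.80% of 138 cells of Hashtag-0255, so these values rest on few cells.

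In the C1Q gate the counts were 323 and 276 of 7650 compared at 10 CPM and 3 and 3 of 1311 at 100 CPM. They were 93 and 109 of 5405 when scaled without mitochondrial and ribosomal protein genes. With higher gate minimums they were 105 and 115 of 3960, and at the 10% limit 1353 and 1209 of 4416. Of 3986 compared, they were 296 and 239 at a fold 25% above 1 and 10 and 5 at 2-fold. With lower gate minimums 20 of 4006 were higher, and without each gene's 3 richest cells 28 of 3784. *TPM1* had log2 ratios of -0.35 and -1.08 with lower and higher minimums and -0.50 without its richest cells. At the 10% limit *DLK1*, *TESC* and *MS4A7* had 1.246, 0.13 and 0.66. The gate then held only 4.32% of 139 cells of Hashtag-0254 and 2.90% of 138 cells of Hashtag-0255, so these values rest on few cells.

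In the granule gate the counts were 335 and 388 of 7774 compared at 10 CPM and 2 and 11 of 1441 at 100 CPM. They were 116 and 134 of 5607 when scaled without mitochondrial and ribosomal protein genes, and 409 and 519 of 4528 at the 10% limit. Of 4325 compared, they were 260 and 363 at a fold 25% above 1 and 3 and 19 at 2-fold. *HBZ* had a log2 ratio of 1.08 with higher minimums, *HBZ*, *HBG2* and *ID2* had 1.48, 1.48 and -0.52 at the 10% limit, and *PLAUR* had -0.16 without its richest cells. At the 10% limit the gate held 19.4% of 139 cells of Hashtag-0254 and 11.6% of 138 cells of Hashtag-0255.

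In the *SPINK2* gate the counts were 26 and 20 of 7637 compared at 10 CPM. They were 2 and 3 of 5466 when scaled without mitochondrial and ribosomal protein genes, and 5 and 4 of 4166 with higher minimums. They were 109 and 107 of 4375 at the 10% limit and 25 and 26 of 4162 at a fold 25% above 1. There 1 gene was higher by per-cell CPM and with lower minimums, and 1 lower with median-of-ratios size factors, without cells of more than 1 gate and without the richest cells. The share of cells in this gate differed by 2.79 points with thinning and -4.13 points at the 10% limit, and that in the C1Q gate by -2.01 points with no mitochondrial limit and -1.97 with no limit on UMIs or genes. The interval of each of these excluded 0 apart from that at the 10% limit.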
